A study of Homo sapiens with 4 samples.

Results

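Members of the epidermal growth factor receptor (EGFR) family and their ligands were examined in cisplatin-resistant head and neck squamous cell carcinoma (HNSCC) cells. The members were taken by gene name from the array design and were 3 receptor genes (EGFR, ERBB2 and ERBB3) and 7 ligand genes (EGF, TGFA, AREG, EREG, HBEGF, BTC and NRG1), 10 of the 43305 gene names with a value on every array. They are measured by 18 of 58183 probes, with 1 probe for 4 genes, 2 probes for 4 genes and 3 probes for 2 genes. The rule is by gene name.

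The data are 4 one-colour Agilent expression arrays of total RNA, 1 for each of 4 cell populations. HN4 and HN30 are human HNSCC lines that were grown in DMEM with 10% fetal bovine serum, and HN4_CR and HN30_CR (HN4/DDP and HN30/DDP in the study) are resistant lines selected from them by rising doses of cisplatin. The resistant cells were kept with 20 μM cisplatin for 48 h, whereas no cisplatin is given for the parental cells, so the acquired trait and the drug in the medium cannot be told apart. Each population was hybridised once and all arrays lie on 1 slide and were scanned in 1 scan. No difference between 2 arrays therefore has a replicate check, and each is given with the scanner SD, the error that follows from the scanner software's own estimate for the spots. That error does not cover the spread between cultures.

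The receptors of this family are tyrosine kinases of the cell surface that pair with each other when a ligand binds and signal through RAS and ERK and through PI3K and AKT. ERBB2 has no known soluble ligand and acts as a partner, and ERBB3 has little kinase activity of its own and recruits PI3K. EGF, TGFA and AREG bind EGFR, whereas EREG, HBEGF and BTC also bind ERBB4, and NRG1 binds ERBB3 and ERBB4. The ligands are made as membrane-bound precursors and are released by proteases such as ADAM17. EGFR is abundant in many HNSCC tumours and is the target of the antibody cetuximab.

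A level below is the log2 signal of a probe minus the 75th percentile of its array, and a difference is the level in the resistant line minus that in its parental line. The 75th percentile corresponded to signals of 435.5 to 481.4 on the 4 arrays, 55.3 to 63.6% of the spots were well above background, and no spot was saturated. Of the 18 probes, 17 were well above background on all arrays, the exception being the EGF probe on both parental arrays. Probes of different genes differ in brightness for the same amount of RNA, so levels were compared between arrays and not between genes. Squamous epithelial markers were checked against the label of the lines: all 9 were well above background on 3 arrays, and on the HN30_CR array 8 were, the keratin gene KRT6A being the exception. The keratins differed too: KRT5 differed by -4.04 in HN4_CR and -1.93 in HN30_CR, KRT14 by 2.34 and 0.22, KRT17 by 3.30 and 0.19, and KRT6A was 10.1-fold higher in HN4_CR and at least 183-fold lower in HN30_CR. Of 6 fibroblast markers, COL1A2, COL3A1, DCN and LUM were not well above background on any array, while PDGFRB and COL1A1 were on all 4, COL1A1 being higher by 1.73 in HN4_CR and by 2.43 in HN30_CR, and the summed signal of the list ran from 99 in HN30 to 510 in HN4_CR. Of 4 endothelial markers, KDR was not well above background on any array, the summed signal ran from 99 to 157, VWF was at least 5.4-fold higher in HN4_CR and differed by 1.49 in HN30_CR, PECAM1 was at least 2.04-fold lower and at least 1.64-fold higher, and CDH5 differed by -0.61 and -0.59. The summed signal of the 4 leukocyte markers with a value was 5211 to 6661 on 3 arrays and 21367 in HN30_CR, where the monocyte marker CD14 was higher by 3.48 than in HN30, while the pan-leukocyte marker PTPRC differed by 0.16, the B cell marker CD79A differed by -0.72, and the T cell marker CD3E, dim on the other arrays, was at least 1.38-fold higher. The part of these markers in the results below was not tested.

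The 250 bases before the start of transcription are shown for 4 ligand genes and for 1 of the EGFR starts, because the study of these lines concerns CREB5, a factor of the CREB and ATF group, and because AREG and EREG are neighbours whose signals ran in opposite directions in HN4. RefSeq windows (GRCh38.p14) were held for 8 of the 10 members, 10 windows in all. Capitals mark a cAMP response element (CRE, TGACGTCA) in AREG and AP-1 motifs (TGACTCA or TGAGTCA) in EGF and at the second start of EGFR. The window of the first EGFR start, not shown, holds neither motif, and 2 of the 10 windows hold an AP-1 motif. The CRE and the AP-1 motif were searched on both strands, and no matches of the 2 overlap.
AREG, chr4:74444886-74445135, plus strand: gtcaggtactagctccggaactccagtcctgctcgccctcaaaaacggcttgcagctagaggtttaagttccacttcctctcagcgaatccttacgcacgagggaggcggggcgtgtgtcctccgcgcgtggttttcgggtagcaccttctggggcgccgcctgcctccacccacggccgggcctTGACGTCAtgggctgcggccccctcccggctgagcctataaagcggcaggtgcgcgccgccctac
EREG, chr4:74364895-74365144, plus strand: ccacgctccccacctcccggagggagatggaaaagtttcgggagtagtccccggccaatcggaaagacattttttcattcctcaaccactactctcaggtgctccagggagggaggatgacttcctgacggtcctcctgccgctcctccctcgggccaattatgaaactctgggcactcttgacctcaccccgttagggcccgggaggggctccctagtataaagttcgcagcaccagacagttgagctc
EGF, chr4:109912633-109912882, plus strand: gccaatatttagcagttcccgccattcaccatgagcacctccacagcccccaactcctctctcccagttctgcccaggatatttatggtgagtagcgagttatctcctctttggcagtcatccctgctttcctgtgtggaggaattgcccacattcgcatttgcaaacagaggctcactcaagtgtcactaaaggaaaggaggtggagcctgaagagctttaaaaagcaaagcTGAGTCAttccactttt
HBEGF, chr5:140346604-140346853, minus strand: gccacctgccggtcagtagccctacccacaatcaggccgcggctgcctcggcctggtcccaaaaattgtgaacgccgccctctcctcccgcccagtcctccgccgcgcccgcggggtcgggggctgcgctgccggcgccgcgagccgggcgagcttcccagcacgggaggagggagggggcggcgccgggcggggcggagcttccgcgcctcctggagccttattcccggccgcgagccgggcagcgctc
EGFR, the second start, chr7:55109589-55109838, plus strand: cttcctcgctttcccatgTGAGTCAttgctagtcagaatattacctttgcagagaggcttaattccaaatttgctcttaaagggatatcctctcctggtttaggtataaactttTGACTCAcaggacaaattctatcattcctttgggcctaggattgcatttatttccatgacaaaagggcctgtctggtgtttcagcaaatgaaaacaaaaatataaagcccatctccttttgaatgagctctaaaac
The CRE of AREG begins 65 bases before its start and was the only full CRE among the 10 windows. The AP-1 motif of EGF begins 17 bases before the start, and those of the EGFR window begin 232 and 136 bases before it. Over all 35116 promoter windows of the same length, 1.65% hold a CRE and 4.2% an AP-1 motif. The shorter CREB motif that the study used, TGACG, not capitalised above and searched on both strands, is held by 21.2% of all windows and by 3 of the 10 windows here. It begins 125 bases before the start of EREG and 154 bases before the first start of TGFA, and in AREG it is part of the CRE. The HBEGF window holds none of these motifs. A match of letters is a description of the sequence and says nothing of binding in these cells.

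A member was counted past a log2 difference of 2, where the study's legend asks for a log fold change above 2 without a base, if its probe was also well above background in the line where it was brighter. On this count 2 of the 10 members were higher in HN4_CR than in HN4 (HBEGF and EGF) and 1 was higher in HN30_CR than in HN30 (EGF). Among all genes well above background in at least 1 array of the pair, 3.62% of 26853 were higher in HN4_CR and 8.35% of 28330 were higher in HN30_CR. No member was lower past this threshold in either line, against 2.19% of genes in HN4_CR and 2.76% in HN30_CR. With dim signals at their bound, the normexp correction, a pseudocount of 16 or a filter on both arrays, EGF was not counted and the higher members were 1 in HN4_CR and 0 in HN30_CR. Counts of 0 to 2 among 10 genes are too small to be read as a departure from these shares. Higher calls made up 75.1% of the genes called in HN30_CR, and 50.5% when the arrays were scaled on their medians.

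At a log2 difference of 1, 4 members were higher in HN4_CR (EGF, AREG, HBEGF and NRG1) against 9.39% of all genes, and 2 were lower (EGFR and BTC) against 8.57%. In HN30_CR, 2 members were higher (EGFR and EGF) against 19.7% of all genes, and 2 were lower (EREG and NRG1) against 13.3%. EGF was past 1 in the same direction in both lines, but at 0.66 and 0.64 with the normexp correction, while BTC was at -1.02 and -1.16 with scaling on the medians. EGFR and NRG1 were past 1 in opposite directions, but not under every alternative: EGFR in HN30_CR was at 0.78 with the mean of its probes, and NRG1 in HN4_CR at 0.76 and BTC in HN4_CR at -0.82 with the normexp background correction.

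**Figure D1:**
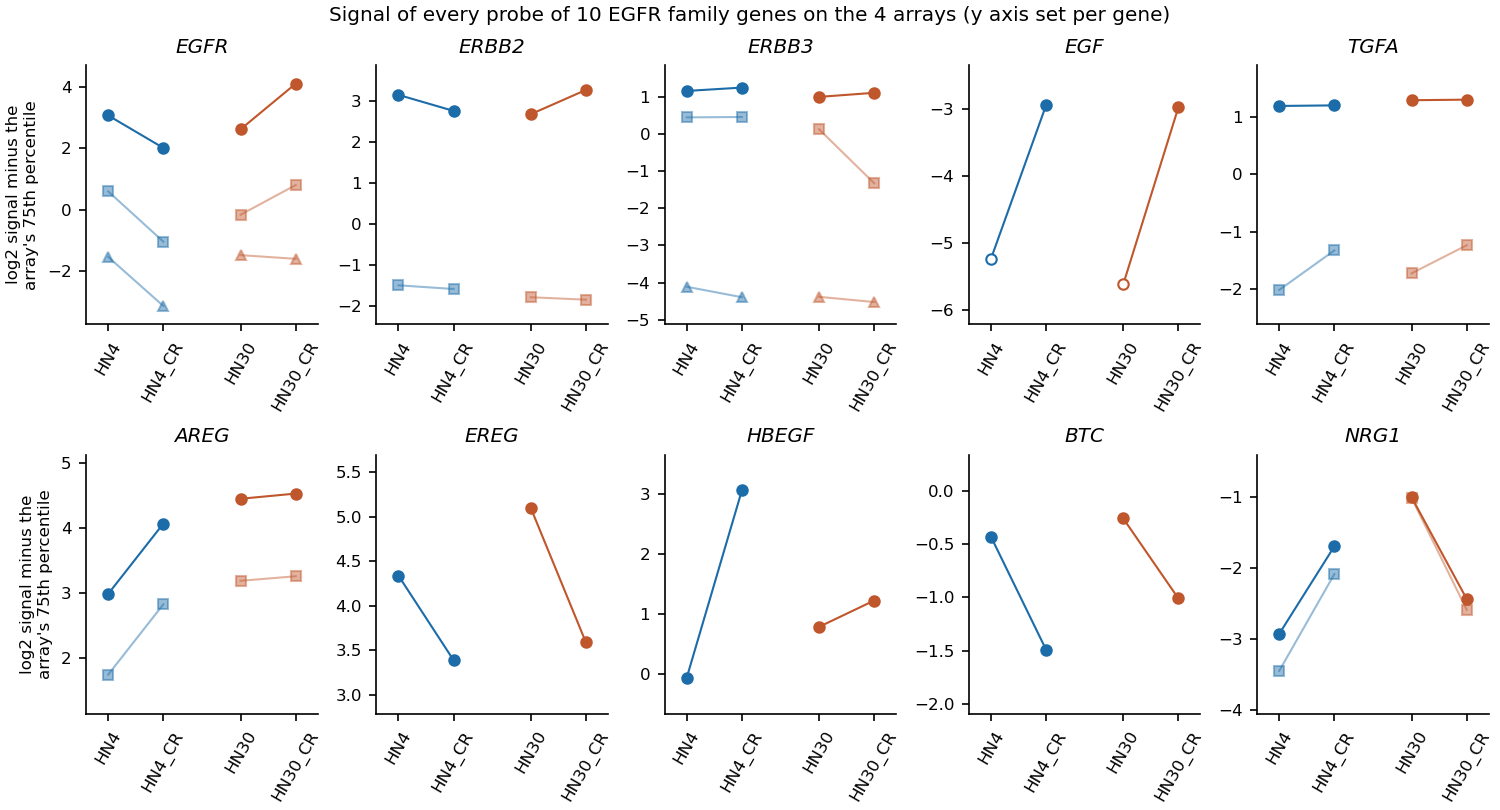
Level of every probe of the 10 genes (log2 signal minus the array's 75th percentile, y axis set for each gene) on the HN4 and HN4_CR arrays (blue) and the HN30 and HN30_CR arrays (orange). Each point is 1 probe on 1 array, lines join a parental line to its resistant line, full colour marks the brightest probe of a gene, pale squares and triangles its other probes, and open circles a signal not well above background; the brightest EGFR probe was lower in HN4_CR (2.01 against 3.07) and higher in HN30_CR (4.11 against 2.62).

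Among the receptors, EGFR differed most. Its brightest probe (NM_005228, hg19 chr7:55274841-55274900) had levels of 3.07 in HN4, 2.01 in HN4_CR, 2.62 in HN30 and 4.11 in HN30_CR. HN30_CR was thus the highest of the arrays and HN4_CR the lowest, with the parental lines between them and 0.45 apart. The difference was -1.06 in HN4_CR (scanner SD 0.20), a signal 2.09-fold lower, and 1.49 in HN30_CR (scanner SD 0.20), a signal 2.81-fold higher. The difference between these values was 2.55 (scanner SD 0.29). In size, the EGFR difference exceeded that of 88.4% of 23470 genes well above background on both arrays in HN4 and of 85.7% of 23245 genes in HN30.

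The other EGFR probes carry accessions of short transcripts, which encode only the extracellular part of the receptor. Whether these probes also detect the full-length transcript was not tested. The probe for NM_201283 (hg19 chr7:55224558-55224617), a short transcript, followed the first probe, with a difference of -1.64 in HN4_CR and 0.98 in HN30_CR. The probe with the accession NM_201282 (hg19 chr7:55231446-55231505) is shown because it departed from the others in HN30.
EGFR probe for NM_201282: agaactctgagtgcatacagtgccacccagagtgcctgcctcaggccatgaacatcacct
Its levels were -1.55 in HN4, -3.15 in HN4_CR, -1.49 in HN30 and -1.61 in HN30_CR. It was lower in HN4_CR by -1.60 (scanner SD 0.22), as the other probes were, but its difference in HN30_CR was -0.12 (scanner SD 0.21), within its scanner SD. All 3 probes were thus lower in HN4_CR, whereas 2 of 3 were higher in HN30_CR.

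ERBB2 and ERBB3 varied less. The ERBB2 probe for NM_001005862 (hg19 chr17:37884829-37884888) is printed at 10 spots on each array, and its levels were 3.14 in HN4, 2.75 in HN4_CR, 2.67 in HN30 and 3.26 in HN30_CR. The SD between its spots was 0.017 to 0.037, over 10 spots on 3 arrays and 8 on HN30_CR, which is spread within an array only. The differences were -0.39 in HN4_CR and 0.58 in HN30_CR (scanner SD 0.20 in each), the same signs as EGFR at a smaller size. In HN30_CR the value depends on the scaling, at 0.17 with scaling on the medians, within the scanner SD, and at 1.01 with quantile scaling. Another ERBB2 probe, which carries an Ensembl transcript accession, had signals of 127 to 172, well above background on all arrays. It differed by -0.09 and -0.06.

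The brightest ERBB3 probe (NM_001982, hg19 chr12:56496160-56496219) had signals of 1071 in HN4, 1137 in HN4_CR, 862 in HN30 and 1009 in HN30_CR. The levels lay between 0.99 and 1.24, with differences of 0.09 and 0.11 that lie within the scanner SD of 0.20. The probe for NM_001005915 (hg19 chr12:56479217-56479276), a short transcript of ERBB3, had levels of 0.44 in HN4, 0.45 in HN4_CR, 0.12 in HN30 and -1.33 in HN30_CR. It differed by 0.01 in HN4_CR and by -1.44 in HN30_CR (scanner SD 0.21), a signal 2.72-fold lower that the brightest probe did not show. The probe nearest to background differed by -0.29 and -0.14, within its scanner SDs of 0.35 and 0.40.

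Among the ligands, HBEGF, whose precursor is also the receptor for diphtheria toxin, had the widest range of levels over the arrays of any member well above background on all 4. Its 1 probe (NM_001945, hg19 chr5:139713052-139713111) had signals of 459 in HN4, 4012 in HN4_CR, 747 in HN30 and 1100 in HN30_CR, or levels of -0.07, 3.06, 0.78 and 1.22. HN4_CR stood apart from the other arrays. The difference was 3.13 in HN4_CR (scanner SD 0.20), a signal 8.75-fold higher, and 0.45 in HN30_CR (scanner SD 0.20), a signal 1.36-fold higher. In size this exceeded the difference of 99% of genes in HN4 and of 42.2% in HN30. Over 8 other ways of making the values, the difference ranged from 2.94 to 3.17 in HN4_CR and from 0.03 to 0.65 in HN30_CR.

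EGF, the founding ligand of the family, was near background. Its 1 probe (NM_001963, hg19 chr4:110932689-110932748) gave signals of 12.7 in HN4, 62.7 in HN4_CR, 8.86 in HN30 and 60.1 in HN30_CR, and neither parental signal was well above background. Both resistant lines were above both parental lines. The measured levels were -5.24, -2.94, -5.62 and -2.97, which give differences of 2.30 (scanner SD 0.47) and 2.65 (scanner SD 0.63). Because the parental side is only a bound, the resistant signal was at least 3.45-fold higher in HN4_CR and at least 3.09-fold higher in HN30_CR, taking the parental signal as the lowest one well above background on its array. Over the alternatives its difference ranged down to 0.66 in HN4_CR and 0.64 in HN30_CR.

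AREG (amphiregulin) has 2 probes that gave the same picture. The brighter (NM_001657, hg19 chr4:75320518-75320577) had levels of 2.99 in HN4, 4.07 in HN4_CR, 4.45 in HN30 and 4.53 in HN30_CR, and HN4 was the lowest array. The difference was 1.08 (scanner SD 0.20) in HN4_CR, a signal 2.11-fold higher, and 0.08 (scanner SD 0.20) in HN30_CR. The other AREG probe, hg19 chr4:75318293-75318352, is shown because the same-sized differences come from a separate stretch of the transcript.
AREG second probe: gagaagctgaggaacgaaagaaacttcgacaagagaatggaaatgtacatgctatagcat
It differed by 1.08 and 0.07. Between the parental lines, AREG was higher by 1.46 in HN30, so the HN4_CR level lay between those of HN4 and HN30. RefSeq lists AREGB, once counted as a separate copy, as a synonym of AREG.

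EREG (epiregulin) was lower in both resistant lines. Its probe (NM_001432, hg19 chr4:75254009-75254068) had levels of 4.34 in HN4, 3.39 in HN4_CR, 5.10 in HN30 and 3.59 in HN30_CR, so that both resistant lines lay below both parental lines. The difference was -0.96 in HN4_CR and -1.51 in HN30_CR (scanner SD 0.20 in each), signals 1.94-fold and 2.85-fold lower. BTC (betacellulin) had the same direction, with levels of -0.43, -1.49, -0.26 and -1.01 in HN4, HN4_CR, HN30 and HN30_CR. Its differences were -1.06 and -0.75 (scanner SD 0.21 in each), and again both resistant lines lay below both parental lines.

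EPGN (epigen), EREG, AREG and BTC lie within 497.1 kb on chromosome 4 in hg19, by the distance between their probes. The AREG probe lies 66.5 kb beyond that of EREG. Over the cluster, EPGN, EREG and BTC were lower in both resistant lines, EPGN by -1.78 in HN4_CR and -1.33 in HN30_CR, while AREG was higher in HN4_CR and had no settled sign in HN30_CR.

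TGFA, a ligand of EGFR that squamous cells make themselves, did not differ by more than its scanner SD on its brighter probe (NM_003236, hg19 chr2:70683472-70683531). Its levels were 1.19, 1.20, 1.29 and 1.30 in HN4, HN4_CR, HN30 and HN30_CR, with differences of 0.00 and 0.01 (scanner SD 0.20). The dimmer TGFA probe was higher in both resistant lines, by 0.69 and 0.49 (scanner SD 0.21 in each), so the probes of this gene disagree.

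NRG1 (neuregulin 1), a ligand of ERBB3 and ERBB4, ran in opposite directions in the lines. Its brighter probe (NM_004495, hg19 chr8:32585521-32585580) had levels of -2.93 in HN4, -1.70 in HN4_CR, -1.01 in HN30 and -2.44 in HN30_CR. The order of the parental lines was reversed among the resistant lines. The difference was 1.24 (scanner SD 0.22) in HN4_CR, a signal 2.36-fold higher, and -1.43 (scanner SD 0.21) in HN30_CR, a signal 2.70-fold lower. The other NRG1 probe gave 1.35 and -1.57. It carries the same accession and ends at base 32585512, next to the brighter probe. The probes thus read adjoining stretches of the same transcript and are not separate support for the gene. The difference between the lines was -2.67 on the brighter probe (scanner SD 0.31), and NRG1 in HN30 exceeded HN4 by 1.92.

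**Figure D2:**
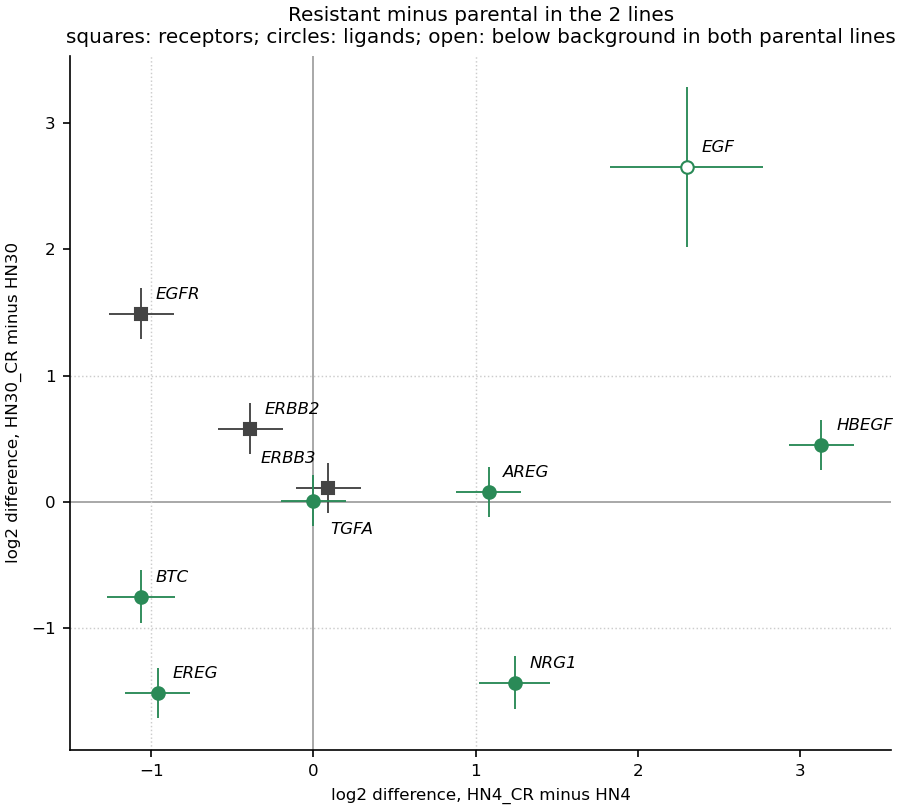
Log2 difference of the brightest probe of each gene in HN4_CR minus HN4 (x axis) against HN30_CR minus HN30 (y axis). Points are genes, bars are 1 scanner SD, which covers the array measurement only, and dotted lines mark differences of 1. EGF is at the upper right (2.30 and 2.65), drawn open because neither parental signal was well above background. With dim signals at their bound EGF was at 1.78 and 1.63. HBEGF is at the far right (3.13 and 0.45), EGFR at the upper left (-1.06 and 1.49) and NRG1 at the lower right (1.24 and -1.43).

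A difference shared by both lines was tested with limma, with resistant against parental cells in a fit that took the cell line as a block, so that the lines stand in for replicates. Of 29521 genes, 0 (0%) passed an adjusted p of 0.05, 2486 had an unadjusted p below 0.05, and the smallest adjusted p was 0.422. EGF, dim in both parental lines and in the fit through its resistant arrays alone, had a limma adjusted p of 0.474, and its fitted difference is not read as a size. EREG had -1.24 (SE 0.38, limma adjusted p = 0.546) and BTC -0.90 (SE 0.36, limma adjusted p = 0.609), both lower in both lines. HBEGF, with lines that differ in size, had 1.79 (SE 0.76, limma adjusted p = 0.631). For EGFR the lines cancelled, at 0.21 (SE 0.73, limma adjusted p = 0.952), and so they did for NRG1, at -0.10 (SE 0.73, limma adjusted p = 0.98). No member passed the test.

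**Figure D3:**
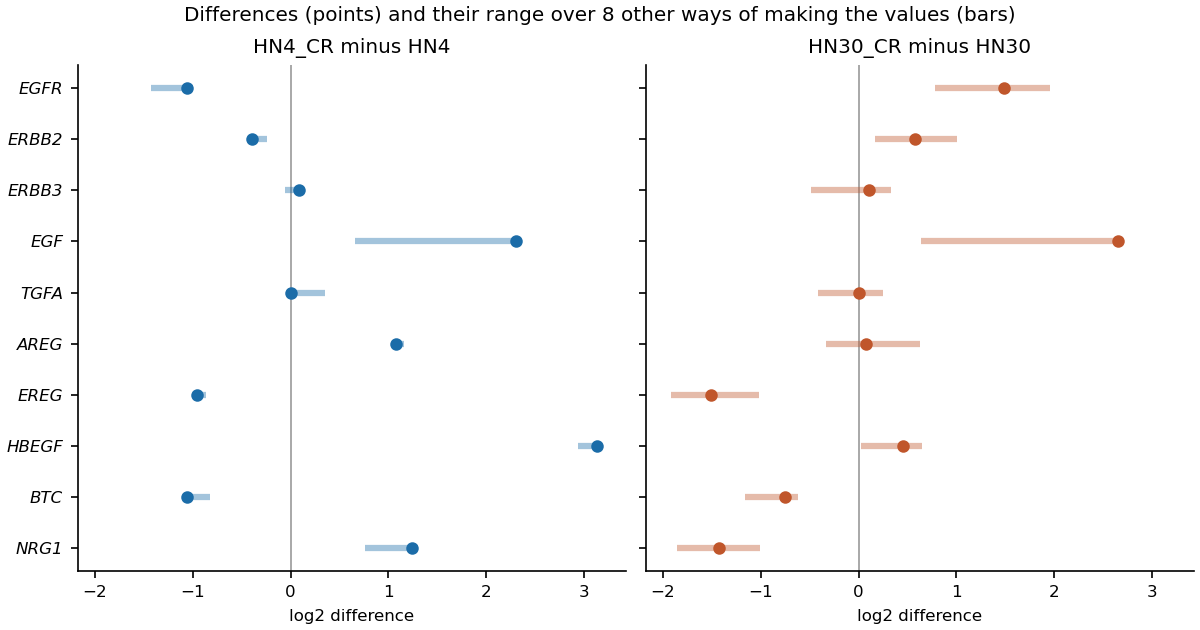
Log2 difference of each gene in HN4_CR minus HN4 (left) and HN30_CR minus HN30 (right). Points are the differences reported here and bars the range over them and 8 other ways of making the values from the same arrays, not an error between cultures; the widest range is that of EGF (0.64 to 2.65 in HN30_CR), and the bars of ERBB3, TGFA and AREG cross 0 in HN30_CR.

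The differences of ERBB3, TGFA and AREG in HN30_CR have no settled sign, since scaling the arrays on their medians gave -0.30, -0.41 and -0.33, and quantile scaling gave 0.33, 0.25 and 0.63. Scaling on the medians moved the median of all genes in HN30_CR from 0.05 to -0.37. EGFR, ERBB2, EGF, EREG, HBEGF, BTC and NRG1 kept the sign of their differences in both lines under all 8 alternatives.

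The other members of the family were mostly dim. ERBB4, the remaining receptor, was not well above background on any array by 1 of its 2 probes, and by the other it was measured in HN30_CR alone, with a signal of 82.9, at least 4.26-fold higher than in HN30. The ERBB4 probes disagree. EPGN was well above background on all arrays, with signals of 129 in HN4, 37.5 in HN4_CR, 85.5 in HN30 and 36.9 in HN30_CR. NRG2 was near background, except for 1 probe with a signal of 89.1 in HN30_CR, at least 4.58-fold higher than in HN30. NRG3 was not well above background on any array, and NRG4 differed by 0.03 and 0.28.

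Of 10 genes that shed or traffic the ligands, all well above background on every array, 0 were past 2 in HN4_CR, against 3.62% of all genes higher and 2.19% lower, and 1 was lower in HN30_CR, against 2.76%. That gene was ADAM12, a protease that can shed HBEGF, with levels of -1.60 in HN4, 0.21 in HN4_CR, -0.14 in HN30 and -2.79 in HN30_CR. It differed by 1.81 in HN4_CR and -2.65 in HN30_CR. ADAM17, the main protease of several of these ligands, differed by 0.26 and 0.13. TIMP3, an inhibitor of ADAM17, was higher by 1.31 and 1.55. The median difference of the list was 0.12 in HN4_CR and 0.58 in HN30_CR (0.17 with scaling on the medians), against -0.08 and 0.05 over 29521 genes (-0.04 and -0.37 with that scaling). The shares of all genes given here and for the pathway lists below include genes dim on 1 array of the pair. Every gene of these lists was measured on all 4 arrays, so these shares are not like for like. With genes dim on either array of a pair left out, 390 of 23470 were higher past 2 and 289 lower in HN4_CR. In HN30_CR, 1034 of 23245 were higher and 570 lower. The median differences of these genes were -0.09 and -0.07.

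The list of receptor inhibitors and feedback genes held 18 genes, not all of which restrain the receptors. Of these, 2 were lower past 2 in HN4_CR, against 2.19% of all genes, and 0 in HN30_CR, against 2.76%. They were LRIG1 and LRIG3, which belong to a family of membrane proteins, and LRIG1 promotes the breakdown of EGFR family receptors. LRIG1 had levels of -0.58 in HN4, -3.30 in HN4_CR, -1.93 in HN30 and -1.68 in HN30_CR. It differed by -2.72 in HN4_CR and 0.25 in HN30_CR, and LRIG3 by -2.69 and -0.54. The feedback inhibitor ERRFI1 differed by -0.26 and 0.18. The median of the list was -0.11 in HN4_CR and 0.32 in HN30_CR, and the latter was -0.09 with scaling on the medians.

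Of the adaptors and transducers of the signal, 23 are reported here, all well above background on every array, and 2 of them were lower past a difference of 1 in HN30_CR, against 13.3% of all genes, and 0 were higher, against 19.7%. Neither count is above the share over all genes, but at a difference of 1 that share was not taken without the genes dim on 1 array. In HN4_CR, 0 were past a difference of 1 in either direction, against 9.39% of all genes higher and 8.57% lower. The 2 lower genes in HN30_CR were the RAS genes HRAS, with -0.02 in HN4_CR and -1.92 in HN30_CR, and NRAS, with -0.04 and -1.49. Both were named after their values were seen. The median of the 23 genes was -0.04 in HN4_CR and -0.43 in HN30_CR, and the latter was -0.84 with scaling on the medians and -0.14 with quantile scaling.

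Of 15 genes that are induced downstream of ERK, 3 were higher and 1 lower past 2 in HN4_CR, against 3.62% and 2.19% of all genes, and 0 were past 2 in HN30_CR, against 8.35% and 2.76%. DUSP5, a phosphatase of nuclear ERK, differed by 2.38 in HN4_CR and 1.19 in HN30_CR. The early response factor FOS differed by 2.85 and 0.66, and EGR1 by 2.12 and -1.21. EPHA4, a receptor of ephrins, was the lower gene, with -2.25 and 1.91. The median was 0.78 in HN4_CR and 0.57 in HN30_CR, and 0.82 and 0.16 with scaling on the medians. Some genes of this list are also in the list of receptor inhibitors and feedback genes, so the values of these lists are not from separate genes.

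**Figure D4:**
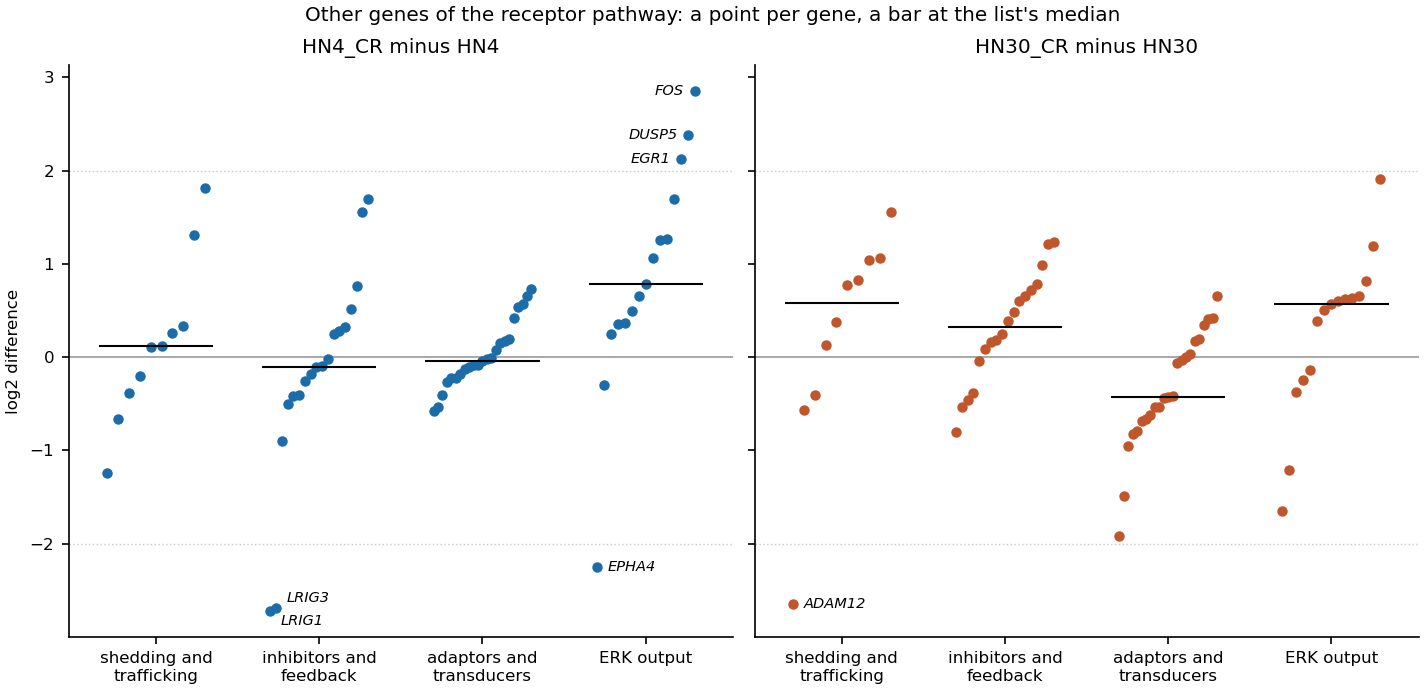
Log2 difference of the other genes of the receptor pathway in HN4_CR minus HN4 (left) and HN30_CR minus HN30 (right), by list. Genes shared by the inhibitor and ERK output lists are drawn in both. Each point is a gene, sorted by value within its list, black bars are list medians and dotted lines mark differences of 2; the ERK output list has the highest median in HN4_CR (0.78), and FOS, DUSP5 and EGR1 lie above 2 there, while ADAM12 alone is past 2 in HN30_CR.

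The genes with a pattern most like that of HBEGF over the 4 arrays were sought among 22140 genes well above background on all of them, after each gene was centred on its own mean. The nearest named genes were EFNB1, a ligand of Eph receptors, with a root mean square distance of 0.14 on the log2 scale, and PTPRM, a receptor phosphatase, with 0.23. EFNB1 had levels of 1.40 in HN4, 4.55 in HN4_CR, 1.92 in HN30 and 2.63 in HN30_CR. The other 3 of the 5 nearest carry transcript identifiers in place of gene names. With 4 arrays this likeness is a description.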

How the data were processed

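Total RNA of 4 cell populations was labelled with Cy3 and hybridised to Agilent SurePrint G3 Human arrays. The authors deposited the spot intensities of the scanner software (Agilent Feature Extraction 10.7.1.1), background-subtracted by that software, and a table of log2 values in which all arrays share the same quantiles. The steps behind that table are not stated in the sources used.

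From the 60901 non-control spots, log2 processed intensities were taken, 140 to 204 outlier spots per array were left out, the array's 75th percentile over spots was subtracted, spots of a probe were averaged, and the probe with the highest mean stood for its gene. A quantile step, a background correction or the choice of probe can change these values, and each was tried as an alternative. limma 3.58.1 in R 4.3.3, tested on simulated data, gave the test over both lines. The members and gene lists were chosen with earlier results of these data known. A gene of the list of adaptors and transducers is not reported here, and the counts and medians of that list leave it out. The rule for named genes took all members, the other family members, genes of the pathway lists past a difference of 2, and the 5 genes most like the member with the widest range. ADAM17, TIMP3, ERRFI1, HRAS and NRAS fall outside it and were named after their values were seen, and cell type markers were named as a check of the labels. Probe positions are hg19, and promoters RefSeq GRCh38.p14. The number of arrays limits the precision.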

Additional observations from a re-analysis of the deposited data

Results flagged for a closer look

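EGFR and NRG1 were past a log2 difference of 1 in opposite directions in the 2 lines. For EGFR, the difference in the HN30 line minus that in the HN4 line was 2.55. For NRG1 it was -2.67. With the mean of its probes, EGFR in HN30_CR was at 0.78, and with the normexp background correction NRG1 in HN4_CR was at 0.76, both below 1. With 1 array per condition, neither difference between the lines was tested.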

How the results depend on the processing

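With 1 array per condition, the number of arrays limits every value, and levels near background, such as those of EGF, are the least certain. Of 160 member differences under 8 alternatives, 124 moved by less than their scanner SD, 36 moved by more, and 8 had the other sign, all of them among ERBB3, TGFA and AREG and leaving aside TGFA in HN4_CR, whose difference was 0.00. The count of members higher in HN4_CR was 1 in place of 2, and in HN30_CR 0 in place of 1, with the normexp correction, a pseudocount of 16, dim signals at their bound, and a filter that asks for a measured signal in the parental line too, because EGF was then not counted. A threshold of 1 gave 4 higher and 2 lower in HN4_CR, and 2 higher and 2 lower in HN30_CR. Taking the 75th percentile over probes, an alternative chosen after seeing the data, left these counts as they were and put ERBB3, TGFA and AREG in HN30_CR at -0.02, -0.12 and -0.05. The mean of the probes put ERBB3 at -0.06 in HN4_CR and -0.49 in HN30_CR. Over all genes, counts ran from 260 higher and 170 lower in HN4_CR and 555 and 373 in HN30_CR with the normexp correction to 2522, 2301, 5584 and 3772 with a threshold of 1. The limma test called 0 genes under all 6 of its alternatives, with 1905 to 3250 at an unadjusted p below 0.05. By replicate number no paired analysis was possible because that number is 1 on every array. The limma test paired the arrays by cell line, and without that block it called 0 genes, with 3250 at an unadjusted p below 0.05. All arrays share 1 slide and 1 scan, so a slide block could not be fitted.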
